A study of Homo sapiens with 6 samples.

Results

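The collagen genes encode the chains of the collagens, the main structural proteins of the extracellular matrix. They were taken as the protein-coding genes of GENCODE on GRCh37 whose symbol reads COL, digits, A and digits. This rule gave 44 of 20162 protein-coding genes. Collagen chains repeat the triplet glycine-X-Y, and chains wind together into a triple helix, which is why most collagen genes are split into many short exons that carry whole triplets. Fibrillar collagens such as types I, II, III and V form the banded fibrils of connective tissue, network collagens such as type IV form the sheets of basement membranes, and the fibril-associated collagens with interrupted helices (FACIT) sit on the surface of fibrils. Other members form beaded filaments (type VI), anchor the epithelium to the stroma (type VII) or cross the cell membrane (types XIII, XVII, XXIII and XXV). In the bladder wall most fibrillar collagen is made by stromal cells, while urothelial cells contribute to the basement membrane and its attachments.

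The data are lists of peaks, that is of regions enriched by chromatin immunoprecipitation and sequencing (ChIP-seq) with an antibody to plasminogen activator inhibitor-1 (PAI-1), a protein best known as a secreted inhibitor of the plasminogen activators. They come from RT112 and UM-UC-3, established human bladder cancer cell lines for which the labels name no genetic change and no treatment, with 2 biological replicates of each; 1 input library of each cell line was not analysed here. The lists held 96423 and 60227 peaks in RT112 replicates 1 and 2, and 109287 and 114094 in UM-UC-3 replicates 1 and 2. They hold no read counts, and library depth is therefore unknown. A peak was counted for a gene when it overlapped the gene or the 3 kb on either side by at least 1 bp. No expression values or copy numbers of these cells were analysed here, and a peak says nothing of the level of a collagen.

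Base sequence is shown first for 3 of the stretches of collagen genes in which a peak of every library covered the same bases. COL4A6 encodes a basement membrane chain, COL15A1 a multiplexin of the basement membrane zone and COL21A1 a FACIT chain. Sequences are from GRCh37, written 5′ to 3′ on the strand of the gene and limited to 300 bases around the shared part, and capitals mark the bases under a peak in all 4 libraries.
COL4A6, chrX:107448218-107448517: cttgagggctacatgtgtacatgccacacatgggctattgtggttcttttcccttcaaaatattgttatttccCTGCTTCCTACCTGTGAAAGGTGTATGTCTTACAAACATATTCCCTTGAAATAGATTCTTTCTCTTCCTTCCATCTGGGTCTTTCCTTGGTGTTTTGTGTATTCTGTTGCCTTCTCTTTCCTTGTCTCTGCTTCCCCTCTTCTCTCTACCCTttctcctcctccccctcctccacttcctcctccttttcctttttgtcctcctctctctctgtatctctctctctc
COL15A1, chr9:101779809-101780108: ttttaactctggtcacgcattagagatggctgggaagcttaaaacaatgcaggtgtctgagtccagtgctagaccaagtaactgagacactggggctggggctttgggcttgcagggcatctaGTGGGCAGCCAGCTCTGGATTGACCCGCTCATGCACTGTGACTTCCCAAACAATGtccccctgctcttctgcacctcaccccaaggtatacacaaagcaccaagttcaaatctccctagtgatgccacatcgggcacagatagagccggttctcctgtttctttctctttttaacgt
COL21A1, chr6:56211940-56212239: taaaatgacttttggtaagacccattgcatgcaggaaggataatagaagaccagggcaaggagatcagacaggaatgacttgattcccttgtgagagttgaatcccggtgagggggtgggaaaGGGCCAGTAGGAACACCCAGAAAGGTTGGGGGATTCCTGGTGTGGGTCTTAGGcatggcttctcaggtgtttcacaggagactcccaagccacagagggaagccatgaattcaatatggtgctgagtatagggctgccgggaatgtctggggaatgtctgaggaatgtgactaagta

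In COL4A6 the shared stretch was 152 bases long and lay in the intron after exon 11, and the 300 bases shown were 75.7% pyrimidine (C or T) on the coding strand. Such sequence was rare among the collagen peaks: a purine share at least 20 points from 50% was found in 1.26%, 3.10%, 0.816% and 1.23% of collagen peaks in the 4 libraries and in 0.824%, 1.35%, 0.690% and 0.718% of the peaks of other genes. The RT112 peaks there had scores (−log10 of a p-value or of a q-value, as the peak caller wrote it) of 22.7 and 17.1 and lay within the intron. The UM-UC-3 peaks had scores of 18.2 and 12.9 and reached into exon 11. In COL15A1 and COL21A1 the peaks of the cell lines met over 55 and 53 bases, so that the centres of the RT112 and UM-UC-3 peaks differed there. A peak of RT112 replicate 1 in COL22A1 also touched a peak in each of the other 3 libraries. In all, 5 of 238, 4 of 129, 4 of 245 and 4 of 244 collagen peaks of RT112 replicates 1 and 2 and UM-UC-3 replicates 1 and 2 overlapped a peak in each other library. These were 2.101%, 3.10%, 1.63% and 1.64% of the collagen peaks, beside 2.13%, 3.34%, 1.84% and 1.76% of the peaks of all other protein-coding genes.

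Collagen genes with at least 1 peak numbered 32 and 29 of 44 in RT112 replicates 1 and 2, and 32 and 31 in UM-UC-3 replicates 1 and 2. The shares were 69.3% ± 4.82 (SD, n = 2) in RT112 against 71.6% ± 1.61 (SD, n = 2) in UM-UC-3. Over all protein-coding genes 53.9% and 44.5% had a peak in RT112 against 58.6% and 59.2% in UM-UC-3, but collagen genes are long, with a median of 145 kb beside 27.2 kb. Each collagen gene was therefore set beside the 100 other protein-coding genes nearest to it in length. Of these, 83.4%, 75.9%, 86.4% and 86.6% had a peak in the 4 libraries in the same order, so that in every library the collagen share was the lower. Among genes that were nearest in length and also in the same of 5 classes of GC content, a comparison chosen after the first had been seen, the shares were 72.2%, 65.9%, 75.5% and 76.5%. These lay within 1 percentage point of the collagen genes in both RT112 libraries, and above them in both UM-UC-3 libraries.

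Peak density was at or below that of genes nearest in length. The 44 genes and their flanks held 238 and 129 peaks in RT112 against 245 and 244 in UM-UC-3, and no peak was counted for more than 1 collagen gene. Per 100 kb these were 3.42, 1.85, 3.52 and 3.51 peaks, beside 3.43, 2.13, 3.81 and 4.03 in the genes nearest in length. The ratio of the densities was 0.934 ± 0.0917 (SD, n = 2) in RT112 against 0.898 ± 0.0384 (SD, n = 2) in UM-UC-3. With GC content matched as well, the ratio was 1.15 and 0.994 for RT112 replicates against 1.03 and 0.971 for those of UM-UC-3, so that it lay on either side of 1 within both cell lines. Scaled to 100000 peaks per library, the collagen genes held 33.1 ± 3.32 peaks per Mb (SD, n = 2) in RT112 against 31.5 ± 1.05 (SD, n = 2) in UM-UC-3. The difference of −1.65 was smaller than the spread between the RT112 replicates (two-sided exact permutation test, p = 0.667, where 0.333 is the smallest value that 2 libraries against 2 can give). Without RT112 replicate 1 the difference was 0.695, in the other direction. COL14A1 and COL22A1 held the most peaks in RT112. Without these 2 genes the ratio to the genes nearest in length was 0.799 in RT112 against 0.846 in UM-UC-3, and the difference between the cell lines turned to 1.46.

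**Figure D1:**
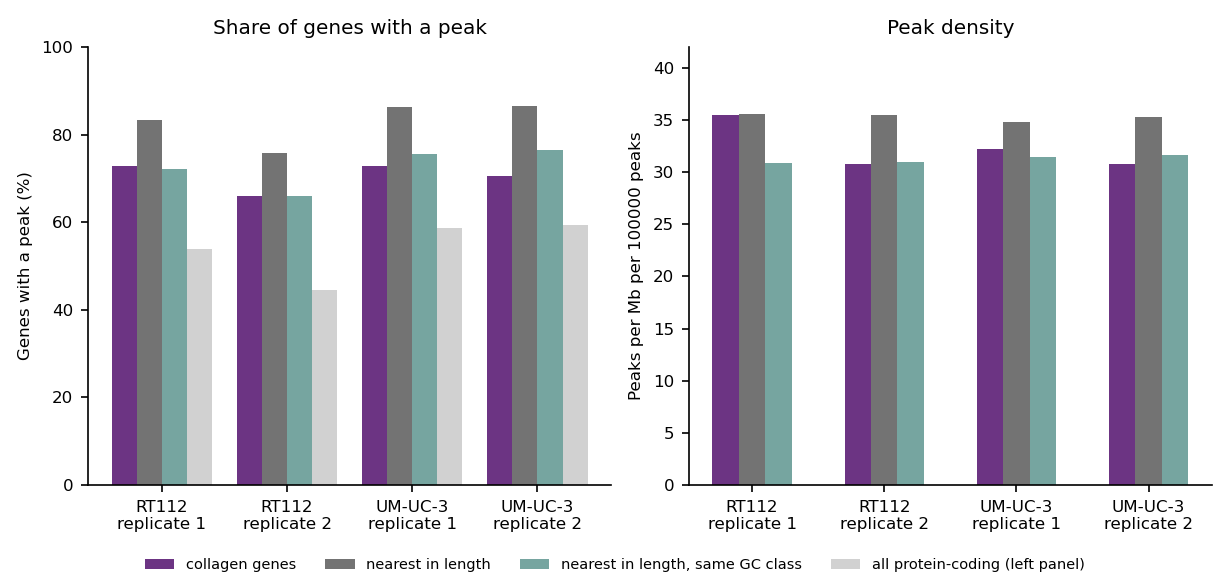
The left panel gives the percentage of genes with a peak in each of the 4 libraries, and the right panel the peaks per Mb scaled to 100000 peaks per library; bars stand for collagen genes, genes nearest in length, genes nearest in length in the same GC class and, on the left, all protein-coding genes. In the left panel the collagen bar is below the bar for genes nearest in length in all 4 libraries, and close to the GC-matched bar in RT112 (72.7% beside 72.2%, and 65.9% beside 65.9%).

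The share of peaks that returned in the other replicate was like that of other genes' peaks within each library. It was lower in both RT112 libraries than in those of UM-UC-3, and it also differed widely between the RT112 replicates. Each RT112 replicate held 82 repeated collagen peaks, out of 238 in replicate 1 and 129 in the shorter list of replicate 2. In RT112, 34.5% of the collagen peaks of replicate 1 and 63.6% of those of replicate 2 overlapped a peak of the other replicate, beside 38.2% and 61.4% for peaks of other protein-coding genes. The UM-UC-3 shares stood at 73.1% and 73.4%, beside 74.5% and 71.2%. A peak in both replicates was found for 29 collagen genes (65.9%) in RT112 against 30 (68.2%) in UM-UC-3. The background over all protein-coding genes was 40.4% and 53.7%, and that over genes nearest in length was 73.3% and 83.4%. Counting only genes in which the same peak returned left 26 collagen genes in RT112 against 29 in UM-UC-3, or 59.1% and 65.9%. All protein-coding genes gave 34.9% and 51.7% by this count, and genes nearest in length 65.8% and 81.3%. Between the cell lines few peaks were shared: 4.62%, 7.75%, 5.31% and 4.92% of collagen peaks in the 4 libraries lay over a peak found in the other line. Peaks of other protein-coding genes gave 7.04%, 7.56%, 5.99% and 5.82%, so that low sharing was general.

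Peaks were present in all 4 libraries for 26 of the 44 collagen genes (59.1%, beside 68.3% of genes nearest in length and 59.1% of those matched in length and GC class). At the other end, 8 collagen genes had no peak in any library: COL1A1, COL3A1, COL6A1, COL7A1, COL8A2, COL9A2, COL9A3 and COL20A1. This is 18.2% of the collagen genes, beside 5.73% of genes nearest in length and 15.7% of those matched in length and GC class. COL1A1 and COL3A1 encode the chains of the most abundant interstitial fibrils, COL6A1 a chain of the beaded filaments around cells and COL7A1 the anchoring fibril below the epidermis and other epithelia. COL8A2 encodes a short-chain network collagen, COL9A2 and COL9A3 chains of the FACIT of cartilage, and COL20A1 a further FACIT chain. All 8 were short, from 17.3 to 41.7 kb, and 7 of them had a GC content of 55% or more, which only 6 of the other 36 collagen genes reached. COL3A1 was the exception at 33.8% GC and 38.4 kb; of the 100 genes nearest in length and GC class to it, 5.0% had no peak in any library. For COL1A1, at 58.5% GC, the corresponding share was 75%. The nearest peak to COL1A1 lay 17.2 and 31.1 kb outside the gene in RT112 against 98.1 and 6.96 kb outside it in UM-UC-3. For COL3A1 it lay 23.1 and 15.3 kb outside in RT112 against 4.33 kb outside in both UM-UC-3 libraries, just past the 3 kb limit. With a limit of 10 kb, the share of collagen genes with a peak was 77.3% in RT112 against 81.8% in UM-UC-3.

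**Figure D2:**
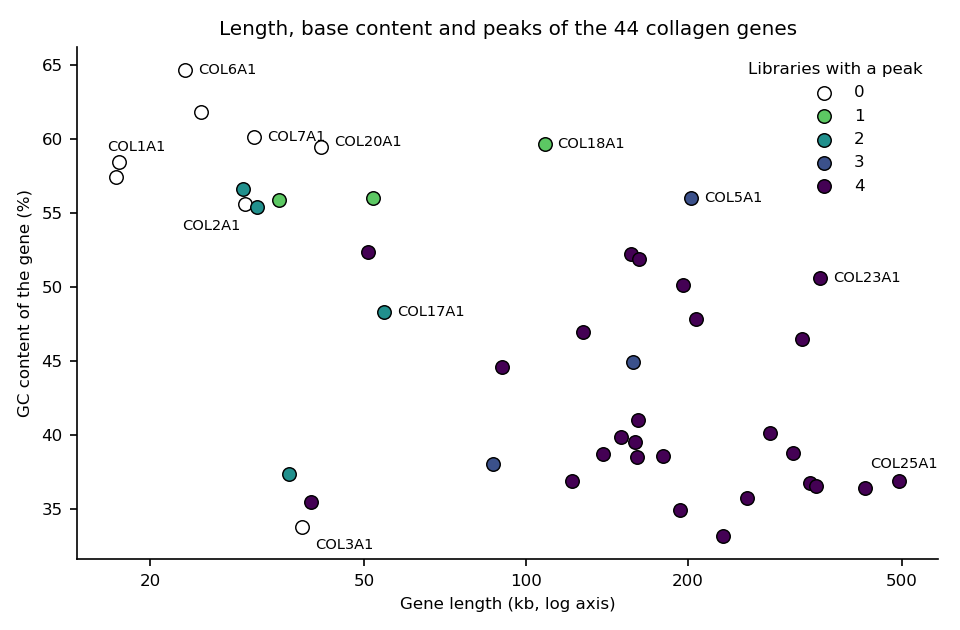
Each point is 1 of the 44 collagen genes, placed by its length in kb (log axis) and the GC content of its sequence in percent, and its shade gives the number of libraries, from 0 to 4, with a peak counted for the gene. The 8 open points without a peak are all at the left, and 7 of them are also at the top; COL3A1 is the open point at the bottom.

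Among the long collagen genes, COL18A1 and COL5A1, both of high GC content, had few peaks for their length. COL18A1 encodes the multiplexin whose end fragment is endostatin. It is 109 kb long with 59.7% GC and had 0 and 0 peaks in RT112 against 0 and 1 in UM-UC-3, where the genes nearest in length averaged 3.83, 2.47, 4.76 and 5. Genes matched in GC class as well averaged 0.86, 0.61, 1.2 and 1.32. COL5A1, which encodes a fibrillar chain that sets fibril diameter, is 203 kb long with 56.0% GC and had 2 and 0 peaks in RT112 against 1 and 1 in UM-UC-3, where the genes nearest in length averaged 8.05, 4.79, 8.63 and 8.59. With GC class matched the averages were 1.09, 0.83, 1.57 and 1.70, so that the counts of both genes were near those of genes matched in both. Both genes also lie in surroundings with few peaks: the 1 Mb on either side of COL5A1 held 12.3 and 17.4 peaks per Mb per 100000 peaks in RT112 and UM-UC-3, and that beside COL18A1 19.9 and 18.8. Among collagen genes under 100 kb, 7, 5, 7 and 6 of 18 had a peak in the 4 libraries. Among those of 100 kb or more, 25, 24, 25 and 25 of 26 had one. Genes nearest in length to the long collagen genes also had a peak more often than those nearest to the short ones. Their share with a peak was not worked out for this split, and the part of length in the contrast was not tested. Beside genes nearest in length, the peak density was 0.99, 0.58, 0.65 and 0.55 times under 100 kb, and 1.0, 0.90, 0.96 and 0.91 times from 100 kb. The split was chosen after the values were seen, and its densities were not compared with genes matched in GC class as well.

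By class, the fibrillar genes lay below genes nearest in length in all 4 libraries, as did some smaller classes. The 11 fibrillar genes had 0.55 and 0.56 times the peak density of genes nearest in length in RT112, against 0.84 and 0.77 times in UM-UC-3. Within this class COL24A1, a vertebrate fibrillar chain of bone and cornea with long introns, held 15 and 8 of the 28 and 18 fibrillar peaks in RT112, against 27 and 24 of the 47 and 46 in UM-UC-3. The 10 FACIT genes had 1.30 and 1.19 times the density of genes nearest in length in RT112 against 1.11 and 1.01 times in UM-UC-3. The 9 network genes had 1.12 and 0.95 times in RT112, against 0.81 and 0.65 times in UM-UC-3. The 5 beaded filament genes had 1.25 and 0.89 times in RT112 against 0.71 and 0.94 times in UM-UC-3, and the 4 transmembrane genes 0.97 and 0.87 times and 0.90 and 0.83 times. The 2 multiplexin genes had 0.93 and 0.93 times in RT112, against 0.52 and 0.78 times in UM-UC-3. COL26A1 and COL28A1, placed in no other class, together had 0.80 and 0.34 times in RT112, against 1.56 and 1.70 times in UM-UC-3. The anchoring fibril gene COL7A1 had no peak. These ratios are descriptions of a few genes each, and the value of the beaded filament genes in RT112 moved from 1.25 to 0.89 between replicates. All the class ratios were matched in length alone, and none was worked out with GC class matched as well. Within the fibrillar class the GC content ranged from 33.2% in COL11A1 to 58.5% in COL1A1.

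**Figure D3:**
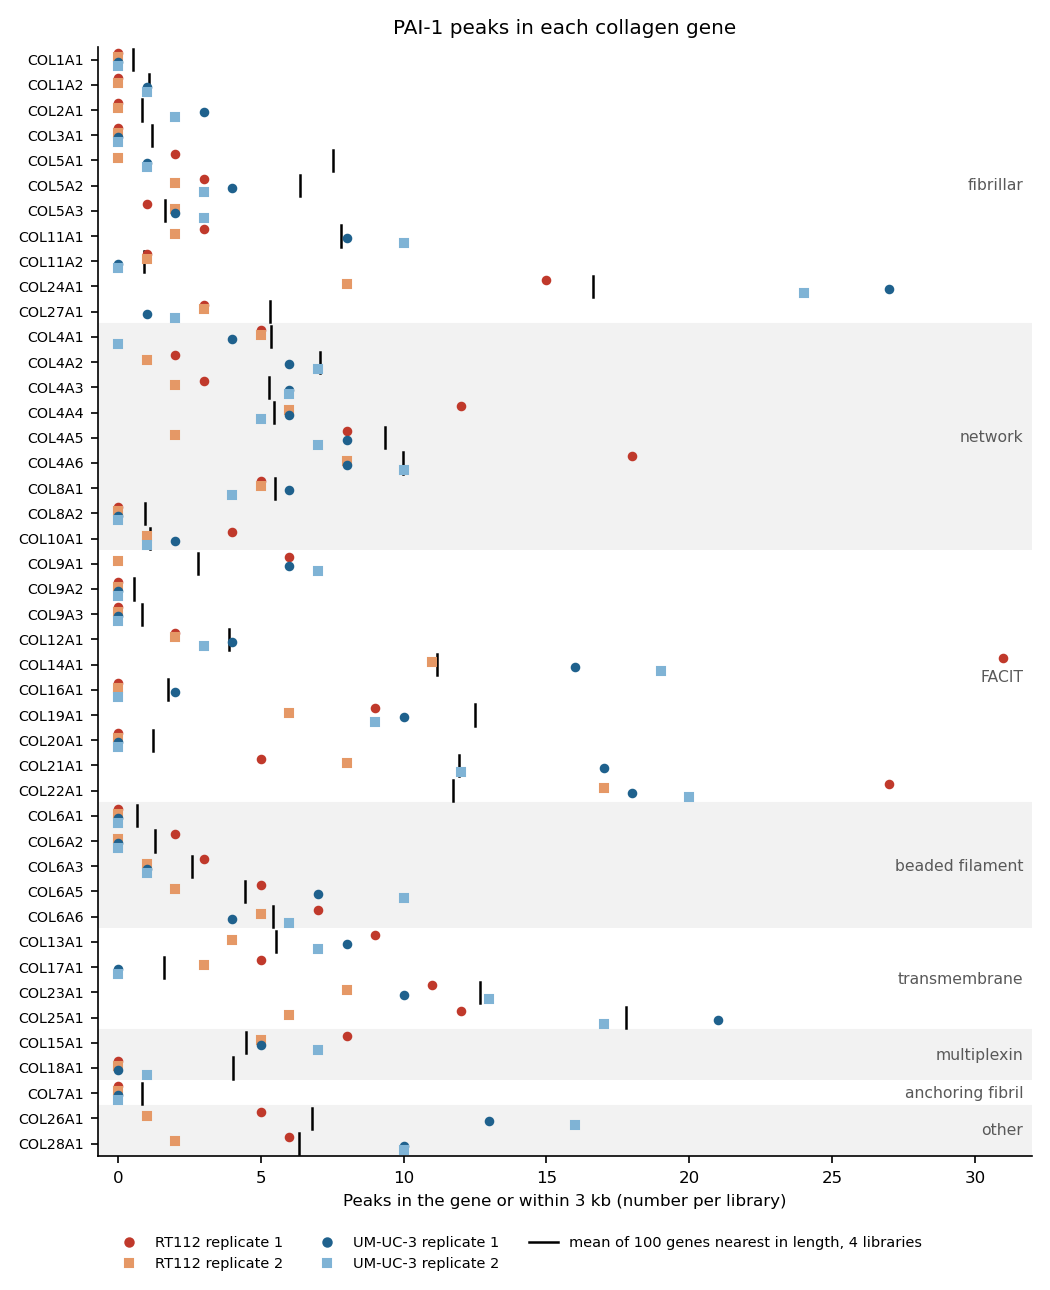
Each row is a collagen gene, grouped by class, and the points give the peaks counted for it in the 4 libraries; the black bar is the mean of the 100 genes nearest in length over the 4 libraries. COL14A1 reaches 31 peaks in RT112 replicate 1, COL24A1 reaches 27 in UM-UC-3 replicate 1, and 8 genes have all their points at 0.

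COL22A1 and COL14A1 were the collagen genes with most peaks in RT112. Both encode FACIT chains: type XXII is found at tissue junctions such as that of muscle and tendon, and type XIV (undulin) binds the fibrils of mature connective tissue. COL22A1 (chromosome 8, 326 kb) had 27 and 17 peaks in RT112 against 18 and 20 in UM-UC-3, and genes nearest in length averaged 12.7, 7.55, 13.0 and 13.7. COL14A1 (chromosome 8, 314 kb) had 31 and 11 peaks in RT112 against 16 and 19 in UM-UC-3, so that its RT112 replicates differed more than its UM-UC-3 replicates. Only 6 of the COL14A1 peaks in RT112 against 7 of those in COL22A1 returned in the other replicate, beside 14 and 15 in UM-UC-3. Per Mb and scaled to 100000 peaks, COL22A1 stood at 84.7 ± 0.48 (SD, n = 2) in RT112 against 51.2 ± 2.26 (SD, n = 2) in UM-UC-3. The surroundings moved with it: the 1 Mb on either side of COL22A1 held 69.2 peaks per Mb in RT112 against 51.3 in UM-UC-3, and that around COL14A1 57.2 and 34.2, on the same scale. Their part in the values of the genes was not tested, and copy number was not measured here.

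In UM-UC-3, COL24A1 had the most peaks, with 27 and 24 beside 15 and 8 in RT112. It was followed by COL22A1, by COL25A1 with 21 and 17 beside 12 and 6, by COL14A1, and by COL21A1 with 17 and 12 beside 5 and 8. COL25A1 encodes a transmembrane collagen of neurons and COL21A1 a FACIT chain of vessel walls, and they are 494 and 338 kb long. In COL24A1, 17 peaks returned in both UM-UC-3 replicates and 6 in both RT112 replicates. Scaled per Mb, COL24A1 stood at 33.2 ± 3.71 (SD, n = 2) in RT112 against 52.7 ± 5.98 (SD, n = 2) in UM-UC-3, and its surroundings at 35.8 and 60.9. For COL25A1 the values were 22.4 and 34.1 in the gene and 15.5 and 27.1 around it. Both genes thus differed between the cell lines in the same direction as the 1 Mb beside them, and the part of the surroundings in this was not tested.

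Over all collagen genes, both UM-UC-3 libraries lay above both RT112 libraries on the scaled measure for 10 of 44 (22.7%), and both lay below for 13 (29.5%). Among all protein-coding genes 23.2% lay above and 18.9% below, and among genes nearest in length 30.2% above and 26.4% below. The collagen counts are thus near those of genes nearest in length, and in the other collagen genes the libraries of the cell lines overlapped or tied.

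**Figure D4:**
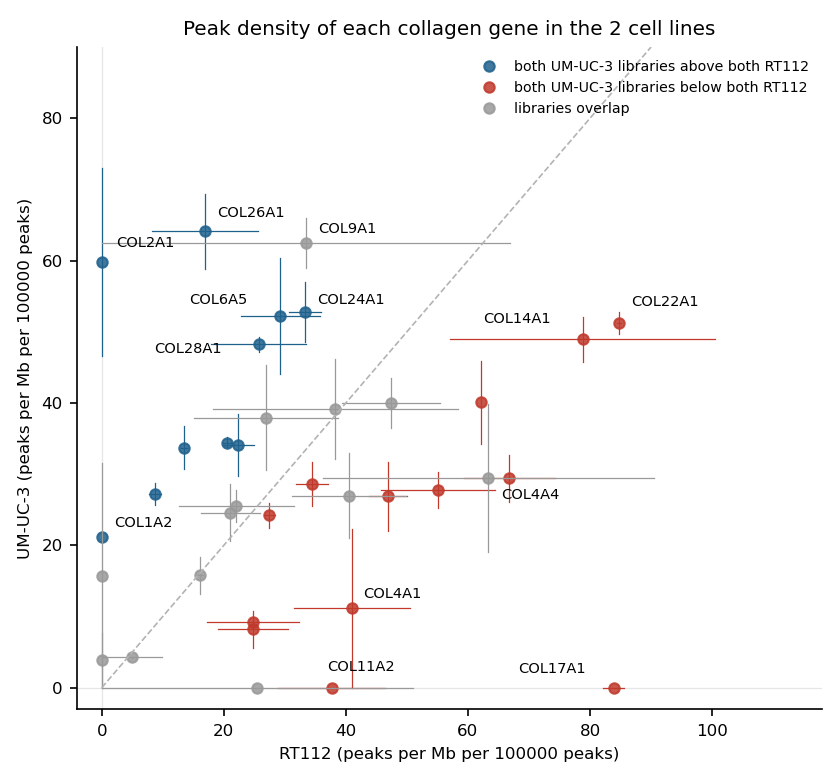
Each point is a collagen gene with a peak in at least 1 library, placed by its mean peaks per Mb per 100000 peaks in RT112 (x) and UM-UC-3 (y); the thin lines join the 2 replicates of each cell line and the dashed line marks equal values. COL17A1 lies far to the right at 0 in UM-UC-3, COL2A1 and COL1A2 lie at 0 in RT112, and COL26A1 is the highest point on the y axis.

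COL17A1 had the largest difference in favour of RT112. It encodes type XVII collagen (BP180), a transmembrane collagen of hemidesmosomes that ties basal epithelial cells to the basement membrane. The gene lies at chr10:105791044-105845638 on the minus strand. It had 5 and 3 peaks in RT112 and none in either UM-UC-3 library, where the nearest peak lay 17.4 kb outside the gene in both. Genes nearest in length averaged 1.35 and 0.88 peaks in RT112 against 2.15 and 2.01 in UM-UC-3. On the scaled measure RT112 stood at 83.9 ± 2.38 peaks per Mb (SD, n = 2), while the 1 Mb beside the gene held 45.6 in RT112 against 36.1 in UM-UC-3. Of the RT112 peaks, 3 returned in both replicates, and 1 of these lay over coding exon 20, with scores of 3.7 and 4.1.

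Among other genes in which both UM-UC-3 libraries lay below both of RT112, COL11A2, which encodes a fibrillar chain of cartilage, had 1 and 1 peaks in RT112 and none in UM-UC-3, and its peak lay at −2890 bp from its start, in the neighbouring gene RXRB, so the assignment to COL11A2 rests on the 3 kb limit. COL4A4 had 12 and 6 peaks in RT112 against 6 and 5 in UM-UC-3, and COL4A1 5 and 5 in RT112 against 4 and 0 in UM-UC-3. The separation of COL4A4 rests on the scaled values, 66.8 ± 10.5 peaks per Mb (SD, n = 2) in RT112 against 29.4 ± 4.67 (SD, n = 2) in UM-UC-3, since the counts meet at 6.

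COL26A1 and COL2A1 had the largest differences in favour of UM-UC-3. COL26A1 encodes a small collagen of the developing testis and ovary. It had 5 and 1 peaks in RT112 against 13 and 16 in UM-UC-3, and genes nearest in length averaged 6.92, 4.49, 7.65 and 8.08. In UM-UC-3 this was more than in 92.0% and 98.0% of the genes nearest in length, and in RT112 more than in 34.0% and 4.0%. No RT112 peak of COL26A1 returned in the other replicate, and 12 UM-UC-3 peaks did. Scaled per Mb, the gene stood at 16.9 ± 12.3 (SD, n = 2) in RT112 against 64.1 ± 7.44 (SD, n = 2) in UM-UC-3. The RT112 libraries stood far apart, at 25.7 and 8.21, but both were below the UM-UC-3 libraries at 58.8 and 69.4, while the 1 Mb beside it held 16.3 and 22.1.
COL2A1, which encodes the main collagen of cartilage, had 0 and 0 peaks in RT112 against 3 and 2 in UM-UC-3 in 31.6 kb. Of these, 2 returned in both UM-UC-3 replicates, with scores of 6.9 and 5.9 and of 3.6 and 3.6. COL6A5 and COL28A1, which encode a beaded filament chain and a related collagen with von Willebrand domains, had 5 and 2 and 6 and 2 peaks in RT112, against 7 and 10 and 10 and 10 in UM-UC-3.

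Few genes, collagen or other, had a peak near the start in both replicates. Within 3 kb of the start, 9 and 2 of 44 genes had a peak in RT112 against 4 and 4 in UM-UC-3. In RT112 replicate 1 this was 20.5%, beside 8.80% of genes nearest in length, but of those 9 genes only COL11A2 had one in replicate 2 as well. A peak near the start in both replicates was thus found for 1 collagen gene in RT112 (2.27%) and 4 in UM-UC-3 (9.09%), and for 4.12% and 9.15% of all protein-coding genes. The 4 in UM-UC-3 were COL1A2, COL9A1, COL19A1 and COL25A1. The COL9A1 peak lay 1983 bp inside the gene, that of COL19A1 2962 bp inside and that of COL25A1 at −1911 bp, upstream of it, with scores from 2.2 to 5.7. COL9A1 encodes a chain of the FACIT of cartilage. It had 6 and 0 peaks in RT112 against 6 and 7 in UM-UC-3, so that its RT112 replicates differed by the whole range.

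The COL1A2 peak was the closest to a start. COL1A2 encodes the second chain of type I collagen and lies at chr7:94024207-94060539 on the plus strand. It had 0 and 0 peaks in RT112 against 1 and 1 in UM-UC-3, centred 490 and 496 bp after the start in intron 1, both with a score of 2.7. This is near the lowest score in the lists, 2.00 to 2.01. The bases are shown since they lie beside the promoter of a fibrillar chain, and capitals mark those under both UM-UC-3 peaks.
COL1A2, chr7:94024586-94024820: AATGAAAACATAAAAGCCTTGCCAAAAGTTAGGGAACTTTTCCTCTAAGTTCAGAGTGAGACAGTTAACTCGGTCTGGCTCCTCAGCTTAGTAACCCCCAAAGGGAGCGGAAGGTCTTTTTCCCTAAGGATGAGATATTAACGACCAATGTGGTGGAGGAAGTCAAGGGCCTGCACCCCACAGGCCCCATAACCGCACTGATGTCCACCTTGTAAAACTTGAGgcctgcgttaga
In RT112 the nearest peaks to COL1A2 lay 15.9 and 20.8 kb outside the gene. COL1A1, the gene of its partner chain, had no peak in any library.

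The 6 chains of type IV collagen are encoded in pairs of genes that are read away from a shared start region. No library had a peak within 3 kb of any of these starts. Such peaks were uncommon in general, found for 9.52% and 6.30% of all protein-coding genes in RT112 against 12.2% and 12.8% in UM-UC-3. COL4A1 and COL4A2 encode the chains found in nearly all basement membranes. COL4A2 had 2 and 1 peaks in RT112 against 6 and 7 in UM-UC-3, the reverse order of COL4A1. Of the COL4A1 peaks 3 returned in RT112 against 0 in UM-UC-3, and of the COL4A2 peaks 0 returned in RT112 against 5 in UM-UC-3. In the COL4A3 and COL4A4 pair, whose products serve the kidney glomerulus, the order of the cell lines also differed. COL4A3 had 3 and 2 peaks in RT112 against 6 and 6 in UM-UC-3, with 0 and 6 that returned, while 5 of the COL4A4 peaks returned in RT112 against 4 in UM-UC-3. The 1 Mb on either side of each of these genes takes in its paired gene. On the scaled measure, that beside COL4A1 and COL4A2 held 35.5 and 38.9 peaks per Mb in RT112 against 38.4 and 36.4 in UM-UC-3. That beside COL4A3 and COL4A4 held 39.0 and 35.2 in RT112 against 26.9 and 28.0 in UM-UC-3. COL4A3 itself stood at 20.6 in RT112 against 34.4 in UM-UC-3, the reverse order of its surroundings. On the X chromosome, COL4A5 had 8 and 2 peaks in RT112 against 8 and 7 in UM-UC-3, and COL4A6 18 and 8 and 8 and 10.

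**Figure D5:**
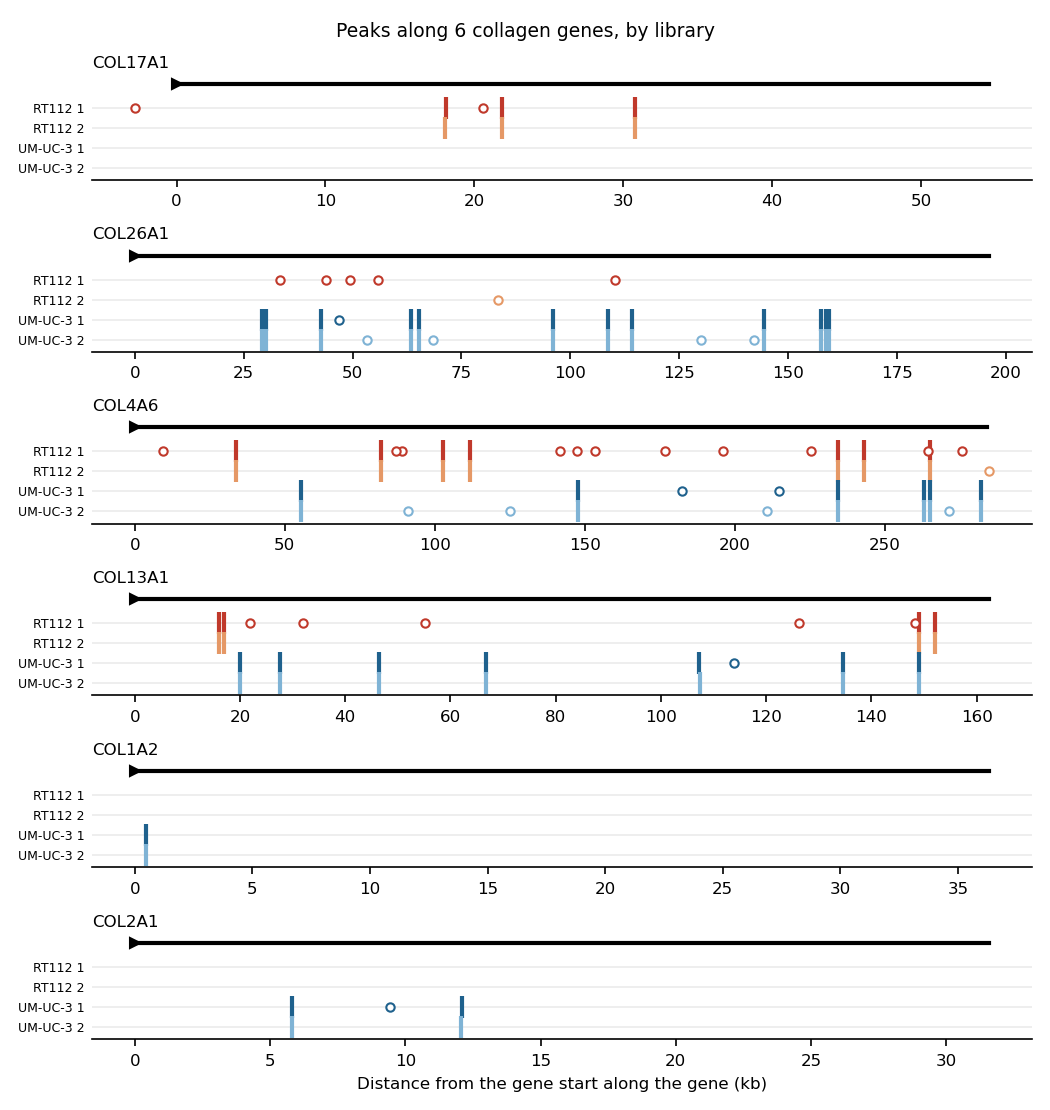
Peaks of the 4 libraries along 6 collagen genes, by distance in kb from the gene start (arrow); bars are peaks that overlapped a peak of the other replicate of the same cell line, and open circles are peaks that did not. COL17A1 has marks in the RT112 rows alone, COL1A2 and COL2A1 in the UM-UC-3 rows alone, COL26A1 has bars only in UM-UC-3, and COL4A6 has a position with bars in all 4 rows.

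The highest scores of repeated peaks were in introns or over an exon of a transcript that is not the canonical one. In RT112 they were in COL13A1 (chr10:71713426-71713848, scores 26.3 and 11.5), COL4A6 (the stretch shown above) and COL19A1 (chr6:70891828-70892262, 16.1 in replicate 1). The COL13A1 peak overlapped an exon of a transcript other than the canonical one. In UM-UC-3 they were in COL6A6 (chr3:130319575-130320036, 23.8 and 27.5, in the intron after exon 20), COL15A1 (26.6 in replicate 2, in the intron after exon 21) and COL4A6 (25.6 in replicate 2, in the intron after exon 2). COL6A6 encodes a beaded filament chain that had 7 and 5 peaks in RT112 against 4 and 6 in UM-UC-3, and none of these strongest UM-UC-3 peaks overlapped an RT112 peak. COL15A1 had 8 and 5 peaks in RT112 against 5 and 7 in UM-UC-3, COL19A1 9 and 6 and 10 and 9, and COL13A1 9 and 4 and 8 and 7, so that the counts of the cell lines overlapped in each of these genes. On the scaled measure UM-UC-3 lay below RT112 in COL6A6, COL15A1 and COL19A1. By median score and width the collagen peaks were like others: median scores were 3.801, 4.09, 3.88 and 3.98, beside 3.801, 4.09, 3.88 and 3.85. A score of 10 or more was held by 10.1%, 8.53%, 12.7% and 12.3% of collagen peaks, beside 9.95%, 8.66%, 9.09% and 9.12%. This share was thus higher in both UM-UC-3 libraries and close to that of other genes in RT112.

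Most collagen peaks lay in introns, at 87.8% and 85.3% in RT112 against 88.6% and 90.2% in UM-UC-3. Coding exons were touched by 19, 12, 17 and 13 peaks, or 7.98%, 9.30%, 6.94% and 5.33%. In genes nearest in length the shares were 3.95%, 3.69%, 3.89% and 3.79%, lower in each library. Collagen genes also hold more coding sequence for their length: coding exons made up 2.89% of the bases counted, beside 1.66% in the genes nearest in length, with a median of 48 coding exons beside 13. Along the 26 genes of 100 kb or more, peaks were spread over the whole gene. Of 3 equal parts of each gene, the part nearest the start held 36.97%, 34.7%, 32.3% and 31.4% of them, beside 32.4%, 33.1%, 32.5% and 32.7% in genes nearest in length.

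The remaining genes are given by their counts. COL5A2, COL12A1, COL8A1 and COL23A1 had peaks in all 4 libraries: COL5A2 had 3, 2, 4 and 3, COL12A1 2, 2, 4 and 3, COL8A1 5, 5, 6 and 4, and COL23A1 11, 8, 10 and 13. COL11A1, a fibrillar chain of cartilage, had 3 and 2 in RT112 against 8 and 10 in UM-UC-3. COL27A1 had 3, 3, 1 and 2, COL5A3 1, 2, 2 and 3, and COL6A3 3, 1, 1 and 1. COL16A1 had 2 peaks in UM-UC-3 replicate 1 alone and COL6A2 had 2 in RT112 replicate 1 alone. COL10A1, the collagen of hypertrophic cartilage, had 4 and 1 peaks in RT112 against 2 and 1 in UM-UC-3, and all 8 of these lay within NT5DC1, the gene in which COL10A1 is nested, so that the peaks cannot be assigned to either gene.

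Of 5 collagen genes on the candidate gene lists published with the study, COL15A1, COL21A1, COL24A1 and COL9A2 are on the list for UM-UC-3 and COL1A2 is on that for RT112. By the paper's account, the lists join genes adjacent to PAI-1 binding with genes upregulated after PAI-1 knockdown. The 3 kb limit was set here and is not stated for the lists, so the criteria differ. The share of all genes that are on the lists was not worked out. COL9A2 had no peak within 3 kb in any library; the nearest lay 22.2 and 5.40 kb away in RT112 against 12.8 and 17.9 kb away in UM-UC-3. The other 4 have their values above, with COL1A2 at 0 in both RT112 libraries.

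The proteins that make, cut and read collagen were looked at as a list of 49 genes chosen by role. A peak in both replicates was found for 23 of them in RT112 (46.9%, beside 48.9% of genes nearest in length) and 32 in UM-UC-3 (65.3%, beside 62.0%). The 5 lysyl oxidases, which crosslink fibrils, had one in 0 cases in RT112 against 3 in UM-UC-3 (0% and 60.0%, beside 37.6% and 49.6% of genes nearest in length). LOXL2 had 1 and 0 peaks in RT112 against 6 and 4 in UM-UC-3. Of 9 collagen receptors, 5 had repeated hits (a peak in each replicate) in RT112 and all 9 had this in UM-UC-3. These are 55.6% and 100%, beside 59.6% and 73.4% of genes nearest in length. ITGA11, the integrin chain that binds fibrillar collagen, had 5 and 4 peaks in RT112 against 11 and 11 in UM-UC-3, and DDR2, a receptor tyrosine kinase for collagen, had 9 and 8 and 9 and 10. Of 8 genes of propeptide processing 7 had a peak in both replicates in RT112 against 6 in UM-UC-3 (87.5% and 75%, beside 71.9% and 83.6%). Among 15 hydroxylases and glycosyltransferases the counts were 6 and 9 (40.0% and 60.0%, beside 47.0% and 60.1%). Among 5 chaperones and export factors they were 2 and 4 (40.0% and 80.0%, beside 44% and 60.8%), and among 7 genes of degradation 3 and 1 (42.9% and 14.3%, beside 24.3% and 36.1%). These groups are small, and no test was made of them. MMP2, which cuts denatured and type IV collagen, had 5 and 5 peaks in RT112 against 2 and 3 in UM-UC-3.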

How the data were processed

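ChIP-seq with an anti-PAI-1 antibody was carried out by the authors on RT112 and UM-UC-3, with 2 biological replicates each. The authors mapped reads to hg19 with Bowtie 1.1.1, removed duplicates with Picard and called peaks with MACS2 2.1.0.20140616; FastQC and Trimmomatic are also named in the submitters' processing notes. Use of the 2 inputs (not analysed here), the threshold and any pooling for the lists are not given in the sources used here. The score deposited with each peak was taken for a −log10 significance (p-value or q-value not stated). It was used within a library, except that the highest-scoring repeated peaks were ranked over both replicates of a cell line together. The lists hold no reads, so counting error could not be given.

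Lines of identical interval were merged. Every peak end lay within the GRCh37 chromosomes. Genes were from GENCODE 44 mapped to GRCh37, and gene length runs over all annotated transcripts. Each collagen gene was compared with the 100 non-collagen genes nearest in length, as a description with no test, since genes are not replicates. The cell lines were compared over libraries with a two-sided exact permutation test. Surroundings are the 1 Mb on either side, outside the window. Peaks were repeated when they overlapped by at least 1 bp. The counting was tested on simulated data. Python 3.11.15, numpy 2.4.6, pandas 2.3.3 and matplotlib 3.10.9 were used.

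The collagen genes, the classes and the list of 49 genes were chosen with earlier results of these data known. Genes were named by a rule: per cell line the 5 with most peaks and the 5 with most peaks per kb, those with no peak, those with a peak near the start in both replicates, the 3 with the highest-scoring repeated peaks, those on the published gene lists (used for names alone), and the 5 in each direction with the largest difference between cell lines without overlap. This gave 30 of 44 genes; the others are given by their counts. Alternatives changed the window, the peaks counted and the comparison genes. Some sequences are not reported here.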

Additional observations from a re-analysis of the deposited data

How the results depend on the processing

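The lists hold no read counts, so depth could not be weighed, and 2 libraries against 2 cannot give a p-value below 0.333. The share of collagen genes with a peak was 77.3% in RT112 against 81.8% in UM-UC-3 with 10 kb on both sides, and 12.5% and 9.09% with only 3 kb around the gene start. It was 40.9% and 52.3% with the 25% of peaks of highest score, and 62.5% in UM-UC-3 with the same number of peaks in every library. With one replicate left out it ranged from 65.9% to 72.7% in RT112 and from 70.5% to 72.7% in UM-UC-3. The share with a peak in both replicates was 2.27% and 9.09% around the gene start, and 31.8% and 50% with the highest-scoring 25%. The share of repeated collagen peaks in UM-UC-3 was 64.5% with that 25%, 64.1% with equal numbers of peaks and 70.8% with a reciprocal overlap of 50%. In RT112 these settings gave 48.6%, 46.5% and 47.8%. The main values were 73.2% ± 0.212 (SD, n = 2) in UM-UC-3 against 49.0% ± 20.6 (SD, n = 2) in RT112. A move in RT112 could therefore hardly exceed the spread between its replicates. The peak density over length-matched genes was 1.59 in RT112 against 0.757 in UM-UC-3 around the gene start, where 9 and 2 RT112 genes had a peak. In UM-UC-3 it was 0.839 with the highest-scoring 25% and 0.850 with equal numbers. It was 1.07 and 0.999 with GC classes, and 0.799 and 0.846 without COL14A1 and COL22A1, a setting chosen after seeing the data. Single replicates gave 0.869 to 0.999 in RT112 against 0.871 to 0.926 in UM-UC-3. The length-matched share itself fell to 69.1% and 76% with GC classes, also chosen after seeing the data. The difference between the cell lines turned to 1.46 without COL14A1 and COL22A1. It ranged from −3.999 to 0.695 with one library left out, where leaving out RT112 replicate 1 turned its direction. With the replicate block it was −1.65 (exact sign changes, p = 0.5, the smallest possible). The labels do not say that replicate numbers mark shared cultures or days, and deviations of same-numbered libraries had a correlation of −0.017 over 14836 genes. In 55 planned cases, some of them given above, no move was counted. Among these, density ratios and shares per library moved by less than the spread between replicates. Shares in both replicates stayed within a binomial interval around the main value. This interval takes the collagen genes as independent, although genes are not replicates. It was wide, from 50.1% to 79.5% in RT112 and from 52.4% to 81.4% in UM-UC-3. A fall from 68.2% to 56.8% in UM-UC-3 with the same number of peaks in every library was thus counted as no move. For the difference between the cell lines only the direction was compared, and it was kept. Its size was −10.7 peaks per Mb per 100000 peaks with only 3 kb around the gene start. The causes of the moves were not tested.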
